A study of Homo sapiens with 2 samples.

Results

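The D-type cyclins, the kinases CDK4 and CDK6, the retinoblastoma protein RB1 and the INK4 inhibitors were examined in A1847 cells, parental and CARM1 KO, sequenced by RNA-Seq. These are 10 genes of the 57736 in the deposited table: CCND1, CCND2, CCND3, CDK4, CDK6, RB1, CDKN2A, CDKN2B, CDKN2C and CDKN2D. They were selected by name, as members of one pathway, with the read counts of these libraries already known, so their values are given as a description. A1847 is a human epithelial ovarian cancer cell line with a high level of CARM1, an arginine methyltransferase. The CARM1 KO cells were made by CRISPR with 1 guide RNA against CARM1 in a lentiviral vector and were grown from 1 clone, whereas the parental cells carry wild-type CARM1. There was 1 library of each, with no drug treatment stated, so no difference below has a replicate check. A difference between these libraries cannot be told apart from a difference between a clone and the population it came from.

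The pathway controls the decision of a cell to copy its DNA. A D-type cyclin, made in response to growth signals, binds CDK4 or CDK6 and activates it. The active kinase phosphorylates RB1, which otherwise holds E2F transcription factors inactive, and the freed E2F factors switch on genes for DNA replication. The INK4 proteins bind CDK4 and CDK6 and block this step. CDKN2A (p16INK4a, and from an alternative first exon the p53 regulator ARF), CDKN2B (p15INK4b) and CDKN2C and CDKN2D (p18INK4c and p19INK4d) encode them, and CDKN2A and CDKN2B are well-known silenced targets of the Polycomb complexes to which EZH2 belongs.

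The table holds read counts, which sum to 30741953 in the parental and 32300391 in the CARM1 KO library. Counts were scaled by TMM, which corrects for library depth and composition, and each fold change has an exact 95% binomial interval that covers counting error only. A gene was called past the fold when its level differed more than 3-fold, the fold threshold of the study, among the 18563 genes whose reads in both libraries summed to at least 10. The study also required a false discovery rate under 0.05, which was not part of the call here. The targeted gene, CARM1, had 975 parental and 380 CARM1 KO reads, which is 2.65-fold lower (95% interval 2.35 to 2.99). Of the 8 epithelial and ovarian tumour markers, KRT8, KRT18, KRT7, EPCAM and PAX8 were well detected and CDH1 had 3 and 53 reads. WT1, with 8 and 1 reads, and MUC16, with 0 and 1 reads in parental and CARM1 KO cells, were near absent. In CARM1 KO cells 5 of these markers were past 3-fold higher and 0 were lower. WT1 and MUC16 were under the minimum of 10 reads, so neither could be called. For these and the fibroblast counts below, the shares over all genes tested were 12.7% higher and 11.8% lower. The summed level of the 8 markers, in TMM-scaled reads per kilobase of exon and library depth (RPKM), was 345 in parental and 1065 in CARM1 KO cells. Of the 4 fibroblast markers 1 was past 3-fold higher and 2 were lower. COL1A1 had 131 and 537 reads, DCN 24 and 0, and LUM 61 and 1, and their summed level with PDGFRB was 1.86 and 2.50 RPKM. That of the leukocyte markers, nearly all from CD68, was 5.98 and 23.7 RPKM, while PTPRC had 6 and 0 reads. The matched endothelial marker, VWF, had 1 and 2 reads. The part of these marker differences in the results below was not tested. In RNA from bulk cells, fewer cells that express a gene cannot be told apart from less RNA per cell.

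All 10 genes passed the minimum of reads. Past 3-fold, CDK6 and CDKN2B were higher and CCND2 and RB1 were lower in CARM1 KO cells, and the other 6 genes lay within 3-fold. Among all genes tested, 12.7% were past 3-fold higher and 11.8% were past 3-fold lower. Over the 10 genes the median log2 fold change was 0.14, and over all genes tested it was -0.03, both with 2 reads added as a prior count. The fold changes of the 10 genes ran from 4448-fold lower for CCND2 to 4.76-fold higher for CDKN2B.

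**Figure D1:**
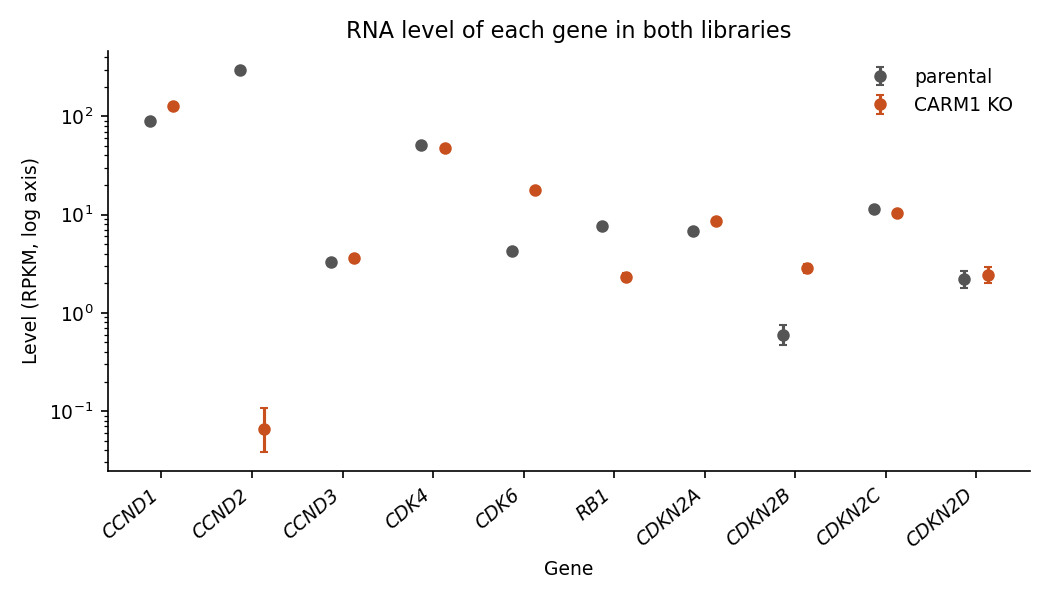
Level of each gene in RPKM, TMM-scaled reads per exon length and library depth (log axis), in the parental and the CARM1 KO library, with exact 95% Poisson intervals of counting error as bars. CCND2 goes from the highest of the 10 genes, at 296 RPKM, to the lowest, at 0.0665 RPKM.

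The promoter sequences of CDKN2B and CDK6 are shown because these are the members that were past 3-fold higher in CARM1 KO cells. Sequences are from RefSeq on GRCh38.p14, a later build than the hg19 of the counts, and cover 250 bases before and 50 bases after an annotated start. The first below lies at chr9:22009256-22009555 on the minus strand. The others, for a pair of CDK6 starts, lie at chr7:92836524-92836823 and chr7:92833910-92834209 on the minus strand. Each is written in the direction of transcription, and capitals mark the CG dinucleotides.
CDKN2B: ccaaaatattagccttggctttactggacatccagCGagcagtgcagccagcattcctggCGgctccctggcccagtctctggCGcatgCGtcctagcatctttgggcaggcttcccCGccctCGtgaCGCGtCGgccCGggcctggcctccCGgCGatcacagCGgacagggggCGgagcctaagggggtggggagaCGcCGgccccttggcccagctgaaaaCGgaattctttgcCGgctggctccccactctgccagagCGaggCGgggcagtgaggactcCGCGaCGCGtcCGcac
CDK6 upstream start: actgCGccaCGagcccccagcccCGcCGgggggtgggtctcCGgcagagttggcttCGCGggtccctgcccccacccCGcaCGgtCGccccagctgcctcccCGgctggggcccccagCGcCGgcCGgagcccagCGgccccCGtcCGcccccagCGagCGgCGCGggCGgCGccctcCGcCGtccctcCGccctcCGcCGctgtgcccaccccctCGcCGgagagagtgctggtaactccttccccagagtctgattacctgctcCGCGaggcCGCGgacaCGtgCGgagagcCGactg
CDK6 downstream start: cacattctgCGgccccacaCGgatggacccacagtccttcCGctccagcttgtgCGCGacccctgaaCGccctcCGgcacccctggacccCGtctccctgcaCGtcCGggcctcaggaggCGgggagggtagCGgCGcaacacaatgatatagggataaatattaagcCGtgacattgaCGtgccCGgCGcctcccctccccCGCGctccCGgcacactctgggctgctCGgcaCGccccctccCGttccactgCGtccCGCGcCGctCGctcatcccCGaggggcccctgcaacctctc
The CDKN2B promoter holds 25 CG dinucleotides, and the CDK6 promoters hold 37 and 29. The median of 35116 promoters of this length was 14, and 68.0% of them held fewer than CDKN2B. Among the members within 3-fold, the CDKN2A promoters held 26 and 28, that of CDKN2D held 36 and that of CDK4 held 23. The CDKN2C promoters held 8, 37 and 11, and those of CCND3 held 3, 37 and 29. These counts spanned those of CDKN2B and CDK6, so CG content did not set CDKN2B and CDK6 apart. Promoters were found for 8 of the 10 genes, and CCND1 and CCND2 did not match. The E2F motif was searched as TTTCCCGC, TTTCGCGC, TTTGCCGC or TTTGGCGC on both strands. It was present in 3.31% of all promoters and in none of the 14 of these genes. The single window for RB1 lies at an internal start, 172.7 kb inside the gene in RefSeq, so the first promoter of RB1 was not searched. The GC box GGGCGG, on both strands, was present in 45.0% of all promoters. CDKN2B held 2 copies, and the upstream and downstream CDK6 promoters held 3 and 0.

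CCND2, encoding cyclin D2, spans chromosome 12 from 4378937 to 4414519 (GRCh37, plus strand). Its read count was 73228 in the parental library and 17 in the CARM1 KO library. This is a 4448-fold lower level, with a 95% interval of 2778 to 7637. By level per length it ranked 85 of the 18563 genes tested in parental cells and 16336 in CARM1 KO cells. Ordered by log2 fold change, CCND2 ranked 4 from the lowest among all genes tested. The 17 reads lay above the 3 reads that a count of 0 would allow.

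CCND1, encoding cyclin D1, lies on chromosome 11 from 69455924 to 69469242. Its reads were 13219 in parental and 19587 in CARM1 KO cells, a 1.43-fold higher level (95% interval 1.40 to 1.47). This was under the fold threshold but larger than the counting error. CCND3, encoding cyclin D3, on chromosome 6 from 41902672 to 42018095, had 583 and 664 reads. Its fold change was 1.10, with a 95% interval of 0.985 to 1.23 that includes no change.

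**Figure D2:**
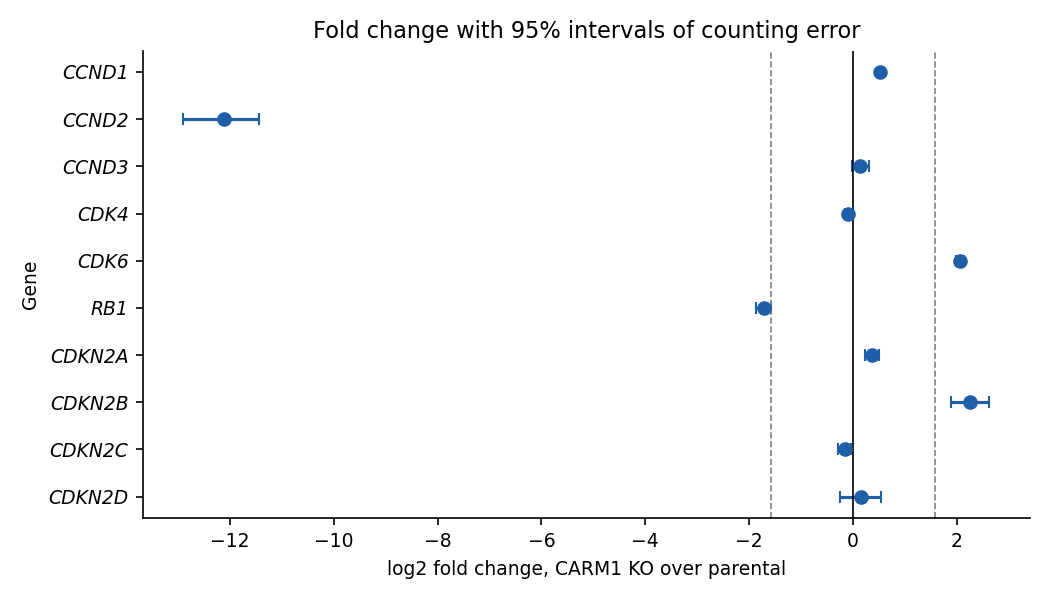
Fold change of each gene in CARM1 KO over parental cells on a log2 axis, with exact 95% binomial intervals of counting error as bars and dashed lines at 3-fold. CCND2 stands apart at 4448-fold lower, RB1 lies at the lower line at 3.29-fold lower, and CDK6 and CDKN2B lie beyond the upper line at 4.19-fold and 4.76-fold higher.

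Set per exon length, the D-type cyclin pool differed in both size and make-up. The summed level of the D-type cyclins was 388 RPKM in parental and 132 RPKM in CARM1 KO cells, lower by a factor of 2.94 (95% interval 2.89 to 2.99). CCND2 made up 76.1% of the summed level in parental cells (95% interval 75.8 to 76.4) and 0.0503% in CARM1 KO cells (95% interval 0.0313 to 0.0809). CCND1 made up 23.1% in parental cells and 97.2% in CARM1 KO cells. CCND3 made up 0.840% and 2.72%, or 1.73% and 5.66% with the longest transcript of each gene as length. The level of CCND2 was 3.30 times that of CCND1 in parental cells, whereas CCND1 was 1933 times CCND2 in CARM1 KO cells. Without CCND2, the summed level of CCND1 and CCND3 was 92.8 RPKM in parental and 132 RPKM in CARM1 KO cells, 1.42-fold higher.

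CDK6, on chromosome 7 from 92234235 to 92465887 on the minus strand, had a count of 1609 in parental and 6969 in CARM1 KO cells. It was 4.19-fold higher (95% interval 3.97 to 4.43). CDK4, its close relative on chromosome 12 from 58141510 to 58149796, had 4911 and 4767 reads, a fold change of 0.940 (95% interval 0.903 to 0.978). The intervals of the kinases did not overlap. CDK4 remained the more abundant transcript, at 51.2 and 48.1 RPKM, against 4.24 and 17.8 RPKM for CDK6. CDK4 was 12.1 times the level of CDK6 in parental and 2.71 times in CARM1 KO cells, or 19.1 and 4.28 times with the longest transcripts. CDK6 thus made up 7.65% of the summed kinase level in parental cells (95% interval 7.26 to 8.06) and 27.0% in CARM1 KO cells (95% interval 26.3 to 27.7). With the longest transcripts these shares were 4.98% and 18.9%. The summed level of both kinases was 55.4 RPKM in parental and 65.9 RPKM in CARM1 KO cells, 1.19-fold higher.

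RB1, the substrate that D-type cyclin kinases inactivate, spans chromosome 13 from 48877880 to 49173572 (plus strand). Its reads numbered 1512 in the parental and 475 in the CARM1 KO library. The level was 3.29-fold lower, and the 95% interval of 2.96 to 3.65 included the 3-fold threshold. RBL1 and RBL2, encoding the related pocket proteins p107 and p130, were within 3-fold. RBL1 had 2087 and 3348 reads, 1.55-fold higher (95% interval 1.47 to 1.64), and RBL2 had 1850 and 2437 reads, 1.28-fold higher (95% interval 1.20 to 1.36). By level per length, RB1 at 7.58 RPKM was below RBL1 at 11.3 RPKM and near RBL2 at 7.36 RPKM in parental cells. In CARM1 KO cells RB1 was the lowest of these, at 2.31 RPKM against 17.6 and 9.38 RPKM.

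CDKN2B was the INK4 inhibitor with a change past 3-fold. It spans chromosome 9 from 22002902 to 22009304 (minus strand), and its reads went from 74 to 364, a 4.76-fold higher level (95% interval 3.70 to 6.20). CDKN2A, its neighbour on the same strand from 21967751 to 21995300, had 812 and 1084 reads. The CDKN2A level was 1.29-fold higher (95% interval 1.18 to 1.42), and its interval did not overlap that of CDKN2B. Counts per gene do not separate the p16INK4a and ARF transcripts of CDKN2A.

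CDKN2C had 1072 and 994 reads, a fold change of 0.898 (95% interval 0.823 to 0.980). CDKN2D had 103 and 118 reads, a fold change of 1.11 whose 95% interval of 0.844 to 1.46 includes no change. Which INK4 transcript was the most abundant depended on the length used. Per union of exons it was CDKN2C, at 11.5 and 10.3 RPKM, against 6.74 and 8.71 RPKM for CDKN2A. Per longest transcript it was CDKN2A, at 24.9 and 32.2 RPKM, against 11.9 and 10.7 RPKM for CDKN2C. CDKN2B was the least abundant in parental cells, at 0.597 RPKM, and its 2.84 RPKM in CARM1 KO cells was close to the 2.45 RPKM of CDKN2D, with overlapping intervals. The share of CDKN2B in the summed INK4 level was 2.84% in parental and 11.7% in CARM1 KO cells, or 1.56% and 6.10% with the longest transcripts. That summed level was 21.0 RPKM in parental and 24.3 RPKM in CARM1 KO cells, 1.16-fold higher (95% interval 1.09 to 1.23).

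**Figure D3:**
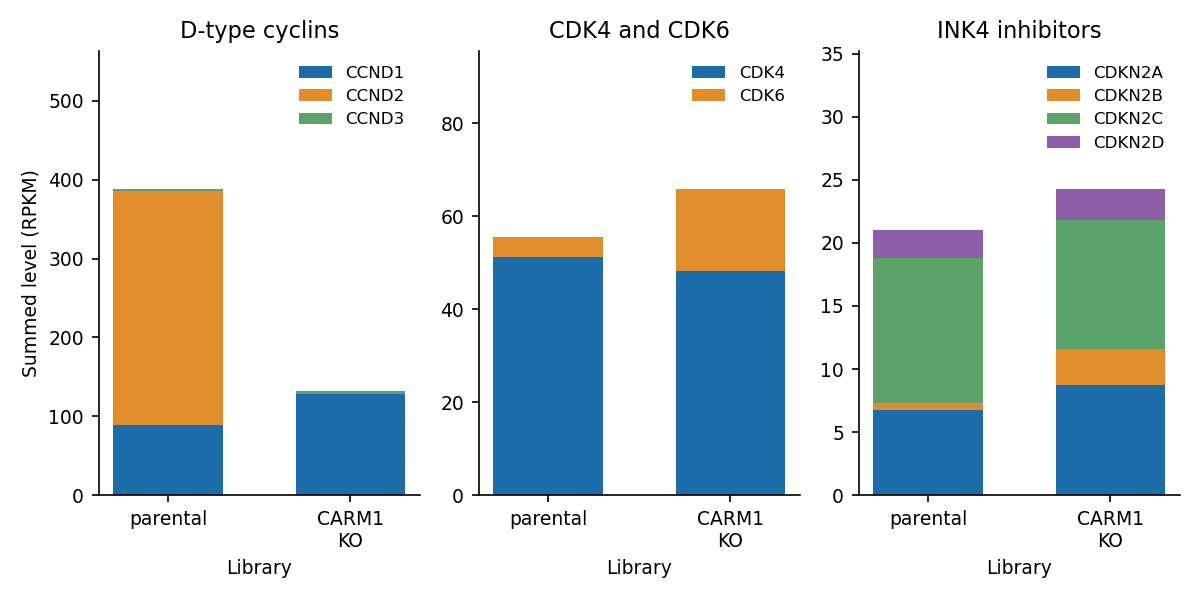
Summed level (RPKM) of the D-type cyclins, of CDK4 and CDK6 and of the INK4 inhibitors in each library, with each gene as a segment. The cyclin bar stands at 388 RPKM in parental and 132 RPKM in CARM1 KO cells, where the CCND2 segment is too small to see, while the kinase and INK4 bars differ by under 1.2-fold and hold a larger CDK6 and CDKN2B segment in CARM1 KO cells.

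The order of the levels differed between the libraries. Per union of exons it ran, in parental cells, CCND2, CCND1, CDK4, CDKN2C, RB1, CDKN2A, CDK6, CCND3, CDKN2D and CDKN2B, and among neighbours in this order only RB1 and CDKN2A had overlapping intervals. In CARM1 KO cells it ran CCND1, CDK4, CDK6, CDKN2C, CDKN2A, CCND3, CDKN2B, CDKN2D, RB1 and CCND2. There the intervals of CDKN2B and CDKN2D overlapped, as did those of CDKN2D and RB1. These intervals cover counting error and not the choice of length. Per longest transcript, CDKN2A ranked 4 in parental and 3 in CARM1 KO cells, and in parental cells CCND3, at 7.85 RPKM, was above CDK6, at 4.45 RPKM. In CARM1 KO cells RB1, at 3.11 RPKM, was then above CDKN2B, at 2.95 RPKM. The summed D-type cyclin level was 7.01 times the summed kinase level in parental and 2.01 times in CARM1 KO cells. It was 18.5 times the summed INK4 level in parental and 5.44 times in CARM1 KO cells, or 11.4 and 3.16 times per longest transcript. The ratio of kinases to INK4 inhibitors was 2.64 and 2.71, and per longest transcript 2.25 and 2.03, so its direction between the libraries depended on the length. These are ratios of RNA levels and not of proteins.

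Where genes share sequence, RSEM apportions the reads among them, so overlaps bear on these counts. Most of the relevant partners are genes on the opposite strand, and whether the counting used strand is not given in the sources used here. TSPAN31, which overlaps 44.2% of the exonic bases of CDK4, had 627 and 495 reads. LTO1 overlaps 10.4% of CCND1 and had 364 and 520 reads. The antisense RNA CDKN2B-AS1 overlaps 15.3% of the exonic bases of CDKN2A and 0 of those of CDKN2B. CCND2-AS1, antisense to CCND2, had 0 reads in both libraries. Windows of 75 bases along the longest transcript of each member were compared with the transcripts of other genes on either strand. The shared part was largest for CDK4, at 49.2%, all with TSPAN31. It was 19.3% for CDKN2C, with ENSG00000290102, 18.8% for CDKN2A, with CDKN2B-AS1 and CDKN2B, 10.2% for CCND2, with ENSG00000285901 and CCND2-AS1, and 8.45% for CCND1, with LTO1. The reads of ENSG00000290102 and ENSG00000285901 were not analysed here. For CDK6 and CDKN2B the shares were 0.129% and 0.159%, and for CCND3, RB1 and CDKN2D they were 0.

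The genes on either side of each member past 3-fold were then examined, taking the 5 nearest protein-coding genes on each side with at least 10 reads. Genes that overlap the member were left out. The changes around CCND2 did not extend over all its neighbours. TIGAR, which encodes a regulator of glycolysis and starts 2.41 kb beyond CCND2, had 1794 and 520 reads and was 3.56-fold lower (95% interval 3.23 to 3.94). The next gene on that side, C12orf4, at 182 kb, had 1601 and 1463 reads, a fold change of 0.885. On the other side the nearest gene, PARP11, at 396 kb, went from 512 reads to 1 read, 529-fold lower with a 95% interval of 94.5 to 20924. The following genes on that side, CRACR2A and TSPAN9, were 3.10-fold and 3.21-fold higher. Of the 10 neighbours of CCND2, 2 were past 3-fold higher and 2 lower, with a median log2 fold change of 0.13. For these and the neighbour counts below, the shares over all genes tested were 12.7% higher and 11.8% lower.

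Around RB1, 0 of 10 neighbours were past 3-fold higher and 1 was lower. This was CYSLTR2, a leukotriene receptor gene with 36 parental and 0 CARM1 KO reads, at least 12.4-fold lower against 3 reads per library, and with a lower limit of 9.57-fold by the exact binomial interval. The nearest neighbour on the other side, ITM2B, at 33.4 kb, was 1.66-fold higher, with 1966 and 3376 reads. The median log2 fold change of the RB1 neighbours was 0.27. The protein-coding genes RCBTB2 and LPAR6 overlap RB1 on the opposite strand and so were not among these neighbours. RCBTB2 had 517 parental and 248 CARM1 KO reads, and LPAR6 had 0 in both libraries.

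Beside CDK6, the neighbouring pair SAMD9 and SAMD9L, both interferon-responsive genes, were also past 3-fold higher. SAMD9 had 392 and 2583 reads, 6.38-fold higher (95% interval 5.74 to 7.11), and SAMD9L had 48 and 441 reads, 8.90-fold higher (95% interval 6.59 to 12.2). They lie 263 and 293 kb from CDK6 and were the 2 past 3-fold higher of its 10 neighbours, with 0 lower. On the other side, the 5 neighbours up to 145 kb away had fold changes from 0.767 to 1.03.

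The 9p21 region that holds CDKN2A and CDKN2B gave a mixed pattern. CDKN2B-AS1, the antisense RNA also known as ANRIL, had 19 and 116 reads and was 5.91-fold higher (95% interval 3.62 to 10.2). DMRTA1, a transcription factor gene 438 kb beyond CDKN2B, had 24 and 160 reads, 6.46-fold higher (95% interval 4.19 to 10.4). ELAVL2, a neuronal RNA-binding protein gene 1681 kb beyond CDKN2B, had 364 and 1886 reads, 5.02-fold higher (95% interval 4.48 to 5.63). In contrast MTAP, the methionine salvage gene on the CDKN2A side, had 2925 and 3745 reads, 1.24-fold higher. KLHL9 and FOCAD, farther on that side, had fold changes of 0.644 and 0.684. IFNE had 1 and 11 reads, a ratio of 10.7 with a 95% interval of 1.55 to 458, and IZUMO3 had 25 parental and 0 CARM1 KO reads, at least 8.61-fold lower against 3 reads, with a lower limit of 6.50-fold by the exact binomial interval. TUSC1 and CAAP1, farther on the ELAVL2 side, had fold changes of 1.97 and 0.812. Of the 10 neighbours of CDKN2B, 3 were past 3-fold higher (IFNE, DMRTA1 and ELAVL2) and 1 was lower (IZUMO3). Thus CDKN2B and CDKN2B-AS1 were past 3-fold higher, while CDKN2A and MTAP, the nearest protein-coding genes on one side of CDKN2B, were not. Whether DNA copy number differs at any of these loci was not measured.

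**Figure D4:**
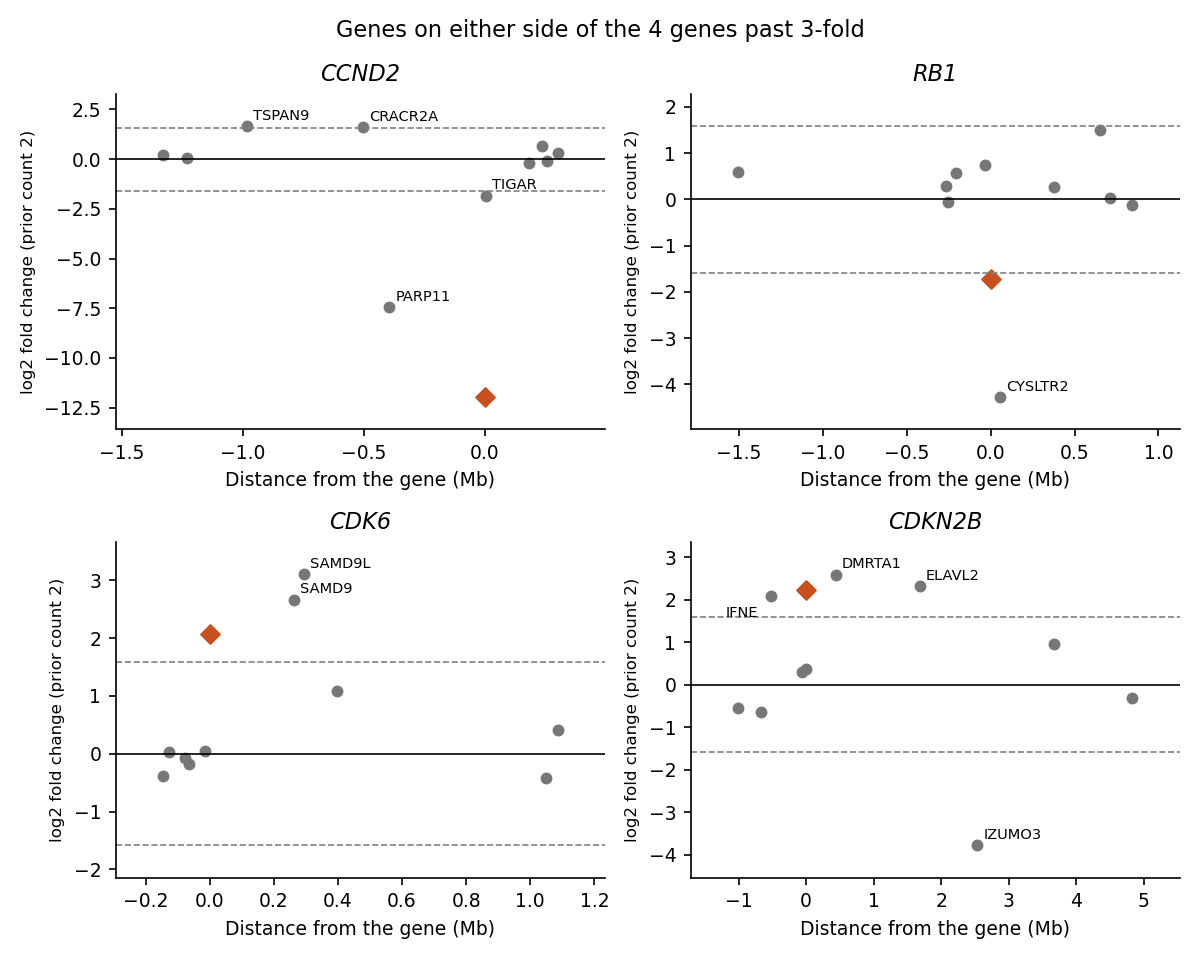
log2 fold change (prior count 2) of CCND2, RB1, CDK6 and CDKN2B (diamonds) and of the 5 nearest protein-coding genes on each side (points), against distance in Mb, with dashed lines at 3-fold. Genes that overlap a member are not plotted. Of the 10 neighbours plotted for CCND2, only TIGAR and PARP11, the nearest on either side, are also past 3-fold lower. CRACR2A and TSPAN9 are past 3-fold higher. Of those plotted for CDK6 only SAMD9 and SAMD9L are also past 3-fold higher. Each panel also holds neighbours within 3-fold.

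The genes with log2 fold changes nearest to each of these members were sought among 7496 protein-coding genes whose summed reads reached 1000. With only 1 fold change per gene, likeness here means a similar fold change and nothing more. Nearest to CCND2, at -11.96 on the log2 scale, were POSTN, encoding the matrix protein periostin, with 32601 and 7 reads, the growth factor receptor gene PDGFRA with 14326 and 2 reads, and the growth factor gene HGF with 25283 and 4 reads. Nearest to RB1 were MSRB3, IMPDH1 and LIPA, nearest to CDK6 were MAML2, HLA-E and VGLL3, and nearest to CDKN2B were TIMP2, SNX19 and NR1D2, each within 0.01 of the member on the log2 scale.

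Other genes of the pathway, in 8 lists of 62 genes in all, were counted in the same way. All 62 passed the minimum of reads, and 5 were past 3-fold higher, 1 was lower and 56 lay within 3-fold. Of all 18563 genes tested, 12.7% were past 3-fold higher, 11.8% were lower and 14023 lay within 3-fold. The median log2 fold change of the 62 genes was 0.09, against -0.03 for all genes tested.

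All 15 E2F target genes, which report the output of the pathway, lay within 3-fold, as did 14023 of all 18563 genes tested. The 15 genes had a median log2 fold change of 0.15. PCNA, the sliding clamp of DNA polymerase, had 12093 and 16067 reads, 1.29-fold higher. MKI67, encoding the Ki-67 proliferation antigen, had 9126 and 12488 reads, 1.33-fold higher. TK1, a thymidine salvage enzyme, was 1.95-fold higher with 2184 and 4401 reads. The replication helicase genes MCM2 to MCM7 had fold changes from 0.872 to 1.28.

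Of the 10 E2F and DP factors, E2F5 was past 3-fold lower, against 11.8% of all genes tested. E2F5, a repressive E2F that acts with the pocket proteins, had 1701 and 247 reads, 7.11-fold lower (95% interval 6.22 to 8.16). The activating factors E2F1, E2F2 and E2F3 had fold changes of 1.66, 0.560 and 1.34. Of the 11 later cyclins, kinases and CDC25 phosphatases, CCNE2 and CCNA1 were past 3-fold higher, against 12.7% of all genes tested. The other 9 lay within 3-fold, and the list had a median log2 fold change of -0.09. CCNE2, encoding the cyclin E2 that activates CDK2, had 1232 and 3956 reads, 3.11-fold higher (95% interval 2.92 to 3.32). CCNE1 had 1989 and 1537 reads, a fold change of 0.748, so that CCNE2 at 28.1 RPKM exceeded CCNE1 at 19.5 RPKM in CARM1 KO cells, whereas in parental cells CCNE1 was at 26.1 and CCNE2 at 9.04 RPKM. CCNA1, the germ-line cyclin A, had 7 and 45 reads, 6.23-fold higher (95% interval 2.79 to 16.4). CDK2 was 2.11-fold higher, with 2628 and 5733 reads, and CDC25A was 2.08-fold lower, with 3290 and 1635 reads.

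Among the CIP/KIP inhibitors 0 of 3 were past 3-fold. For the lists of this paragraph, the shares over all genes tested were 12.7% higher and 11.8% lower. CDKN1A, encoding the p53 target p21, had 833 and 357 reads and was 2.41-fold lower (95% interval 2.13 to 2.74), and CDKN1B, encoding p27, had 1880 and 1568 reads and was 1.24-fold lower. CDKN1C, encoding p57, had 27 and 58 reads and was 2.08-fold higher (95% interval 1.30 to 3.42). None of the 3 subunits of the CDK-activating kinase was past 3-fold. Of the 7 genes for cyclin D turnover, CRYAB, a small heat shock protein that serves as a cofactor of the FBXO4 ubiquitin ligase, was 3.83-fold higher with 292 and 1155 reads (95% interval 3.37 to 4.37), while FBXO4 had a fold change of 0.632 and AMBRA1 one of 0.757.

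Of the 11 upstream inducers of D-type cyclins, JUN and STAT5A were past 3-fold higher, against 12.7% of all genes tested. JUN, an AP-1 factor, had 842 and 5134 reads, 5.90-fold higher (95% interval 5.49 to 6.36). STAT5A, a cytokine-activated factor, had 23 and 138 reads, 5.81-fold higher (95% interval 3.72 to 9.47). MYC was 1.43-fold lower, with 2548 and 1839 reads, and CTNNB1, encoding beta-catenin, was 1.23-fold higher, with 11901 and 15140 reads.

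**Figure D5:**
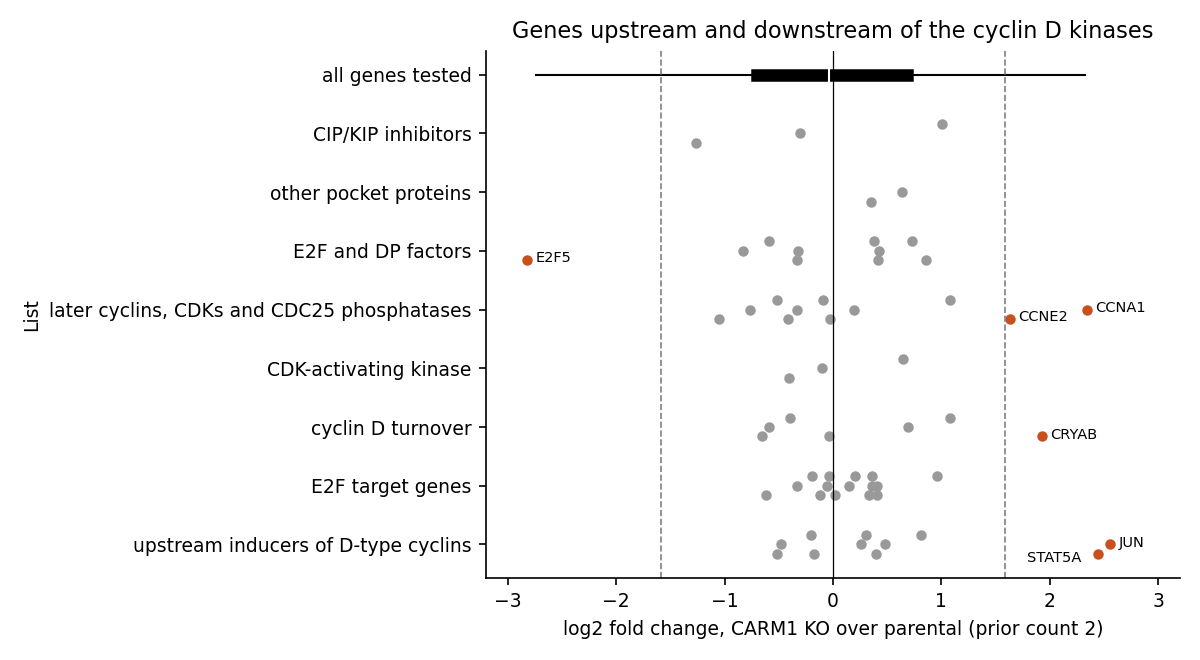
log2 fold change (prior count 2) of the 62 pathway genes by list (points), with genes past 3-fold named, beside all genes tested (thick bar, middle 50%, thin line, 5th to 95th percentile). The E2F targets lie within the dashed 3-fold lines, and 6 of the 62 genes lie beyond them.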

How the data were processed

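RNA was sequenced from parental and CARM1 KO A1847 cells, 1 library each. The authors used bowtie2 for alignment against hg19 and RSEM for counting, and deposited the estimated counts of Ensembl genes as whole, unnormalized numbers. The Ensembl release is not given in the sources used here. Symbols, positions and exon lengths were taken by Ensembl identifier from GENCODE lifted to GRCh37, which held 55501 of 57736 identifiers. Counts were scaled with edgeR 4.0.16 (TMM, R 4.3.3). Fold changes are ratios of scaled counts with exact binomial intervals (scipy 1.17.1). Medians and ranks of log2 fold changes use a prior count of 2, whereas ranks by level use RPKM without a prior count. RPKM was computed here from the union of annotated exons. Intervals of summed levels and of their shares use the delta method on Poisson counts.

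With 1 library per group a quasi-likelihood test has no residual degrees of freedom, so genes were called by fold alone, and edgeR's exact test with an assumed biological coefficient of variation (BCV) was an alternative. The members, the pathway lists, the marker lists and the rules for neighbours and nearest genes were chosen with earlier results of these data known. The named genes are the members, up to 4 examples of each pathway list (the largest changes past the fold, then the highest levels), the neighbours and the nearest genes. Beyond this rule, E2F1 to E2F3, MKI67, TK1, the MCM genes, CCNE1, CDK2, CDC25A, MYC, FBXO4 and AMBRA1 were named after their values were seen, and an item among the pathway genes is not reported here. In counts simulated for these libraries with Poisson error only, over 18571 genes tested, 200 of 200 well-read genes changed 8-fold were called in the right direction. This checks that the calling rule runs correctly. It does not bear on changes near 3-fold, on genes of few reads or on the spread between clones or replicates. Other alternatives were library size only, upper-quartile scaling, DESeq2 1.42.0 size factors, other minimums of reads and folds, and the longest transcript as length. PECAM1 was not matched and is not used here.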

Additional observations from a re-analysis of the deposited data

How the results depend on the processing

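CDK6, CDKN2B, CCND2 and RB1 were past 3-fold under every scaling and minimum of reads tried and with edgeR's exact test at a BCV of 0.12. With the whole 95% interval required beyond 3-fold, 1 member was lower (CCND2), as the interval of RB1 includes 3. At an assumed BCV of 0.4, 0 members were higher and 1 was lower (CCND2), where edgeR's exact test gave CDKN2B, CDK6 and RB1 a Benjamini-Hochberg adjusted p of 0.101, 0.127 and 0.251, which follows from the wider spread assumed. Of 30 further member fold changes under other scalings, 29 stayed within the counting interval and 1 did not, that of CCND1 at 1.47 with upper-quartile scaling. The summed D-type cyclin level had a ratio of CARM1 KO to parental of 0.340, which became 0.334 with library size only and 0.349 with upper-quartile scaling. With the longest transcript as length, the CDK6 share was 4.98% and 18.9% in parental and CARM1 KO cells. The same length, tried for other values after the data were seen, gave CDKN2B 1.56% and 6.10% of the INK4 level and CCND3 1.73% and 5.66% of the cyclin level. The ratio of cyclins to INK4 inhibitors became 11.4 and 3.16, that of kinases to INK4 inhibitors 2.25 and 2.03, and that of cyclins to kinases 5.07 and 1.55.

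Of the pathway genes 5 were higher and 1 was lower, which became 8 and 3 at 2-fold. With the whole interval beyond 3-fold 3 were higher (JUN, STAT5A and CRYAB), and at a BCV of 0.4 only 1 was (JUN). Over all genes, 2357 were higher and 2183 lower. These became 4900 and 5732 with at least 1 read, 3591 and 3568 at 2-fold, 1264 and 1245 with the whole interval beyond 3-fold, and 532 and 894 at a BCV of 0.4, and 1226 were lower with at least 50 reads. No paired analysis was possible because each group has 1 library, which also prevented leaving one out. Genes of few reads, such as IFNE and CCNA1, have wide intervals at this depth.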
